A study of Homo sapiens with 4 samples.

Results

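Glycogen is the branched glucose store of animal cells, and 9 genes that build it, break it down or direct its enzymes were followed here in renal carcinoma cells with and without VHL. The members were fixed by symbol as GYS1, GYG1, GBE1, PYGB, PYGL, UGP2, PGM1, PPP1R3C and PPP1R3B. All 9 were in the deposited table of 12912 genes, none under a repeated symbol, and all 9 passed the filter on low counts that left 12335 genes for testing. The cells were 786-O, a clear cell renal cell carcinoma (ccRCC) line without functional VHL, the substrate-binding subunit of an E3 ubiquitin ligase that marks hypoxia-inducible factor α for degradation. The subline 786-O-Ctrl (VHL-null below) lacks it, and in 786-O-VHL (VHL-restored below) HA-tagged VHL was put back with a retroviral vector. Both sublines also carry the triple reporter (GFP, luciferase and thymidine kinase), were grown in RPMI1640 with serum and antibiotics, and were sequenced as 2 libraries of total RNA each.

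Each group is 1 subline, and the labels do not name separate cultures, so p-values measure the spread between these libraries alone. The counts summed to 22141263 and 15714166 in VHL-null cells, to 2807779 in VHL-restored replicate 1 and to 16114120 in VHL-restored replicate 2. Both VHL-null columns carry the same replicate number, so depth (deeper, shallower) names them here. VHL mRNA was 3.88 times as high in VHL-restored cells, at 178 and 163 CPM against 42.9 and 43.9 CPM, and reads of the vector and of the endogenous gene cannot be told apart. CPM is a count scaled to a library total of 1000000 reads after TMM normalization, which balances the libraries on the bulk of their genes. All 8 markers of a renal epithelial carcinoma line were present, with a summed level of 3535 to 3550 CPM in VHL-null cells and 2197 to 2311 CPM in VHL-restored cells. Of these markers 5 were lower and 1 was higher in VHL-restored cells at an edgeR false discovery rate under 0.05. Over all genes tested, 31.9% were lower and 32.6% higher, and the part of the markers in the results was not tested. None of 5 leukocyte and 2 erythroid markers had a row in the table, and the endothelial markers PECAM1 and KDR had at most 9 counts in a library. In such bulk libraries, fewer cells with a transcript and less of it per cell cannot be told apart.

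In glycogen synthesis, phosphoglucomutase turns glucose 6-phosphate into glucose 1-phosphate, UDP-glucose pyrophosphorylase activates it to UDP-glucose, glycogenin primes a new particle, glycogen synthase lengthens its chains and the branching enzyme adds branch points. Phosphorylase releases glucose 1-phosphate from the chain ends again. Targeting subunits of protein phosphatase 1 (PP1) bring the phosphatase to glycogen, where it activates synthase and inactivates phosphorylase. ccRCC owes its clear cytoplasm to stored lipid and glycogen, and several genes of glycogen synthesis are known hypoxia-inducible genes. The comparison addresses how mRNA levels of such genes differ once VHL is present. Glycogen and enzyme activity were not measured in these libraries.

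The steps of glycogen synthesis did not move together. GYS1, the muscle-type glycogen synthase expressed in most tissues, fell to 33.2% of its level in VHL-null cells. PYGL, the liver-type phosphorylase, fell to 51.8%. GBE1, PGM1 and PPP1R3C also fell, while GYG1, PYGB and PPP1R3B rose and UGP2 did not pass the test. The fall of PPP1R3C rested on VHL-restored replicate 2, and without that library its log2 fold change was -0.06. Of the 9 genes, 5 were lower and 3 were higher in VHL-restored cells at an edgeR false discovery rate (FDR) under 0.05. Over all 12335 genes tested, 31.9% were called lower and 32.6% higher at this threshold, 64.5% in all, so a call by itself is common in this comparison. At a change of at least 2-fold with the same FDR, GYS1 was lower and PPP1R3B was higher, against 7.52% of all genes lower and 10.0% higher. PPP1R3B entered the test only through its higher level in the VHL-restored libraries, so the filter favored a call in that direction. The median log2 fold change of the 9 genes was -0.27, and that of all genes tested was 0.02. The libraries of both groups did not overlap for 8 of the 9 genes, 5 lower and 3 higher, which was also common, since 80.0% of all genes were apart, with 39.2% of all genes apart in the lower direction and 40.8% in the higher.

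**Figure D1:**
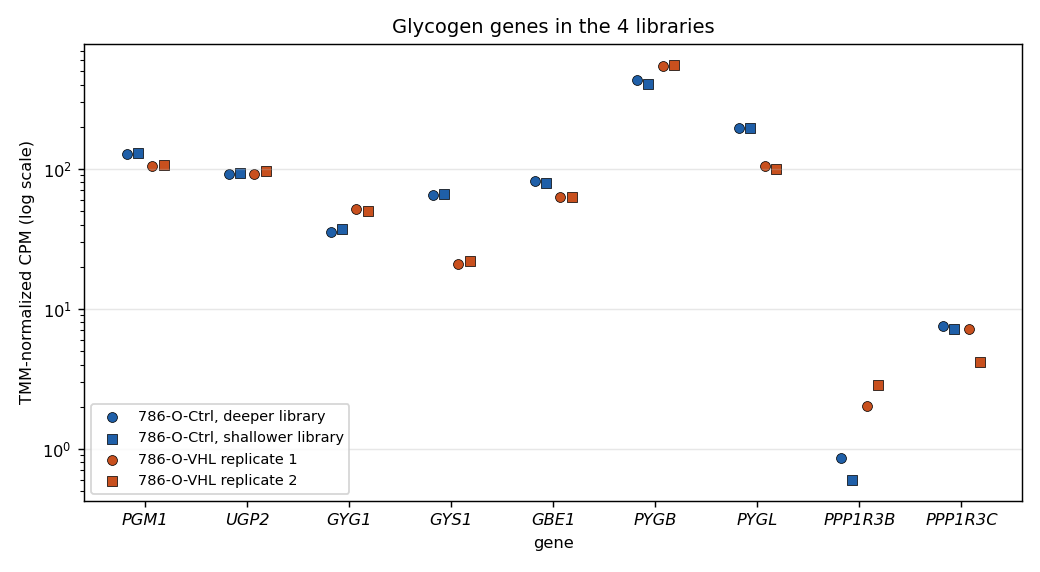
Level of each glycogen gene in the 4 libraries, in TMM-normalized CPM on a log axis, with genes ordered by pathway step and 1 point per library (VHL-null in blue, VHL-restored in orange). GYS1 lies at 64.9 and 65.8 CPM in VHL-null cells and at 21.0 and 21.9 CPM in VHL-restored cells, while the 4 points of UGP2 lie between 91.3 and 96.0 CPM.

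The promoters of 5 genes are printed because these genes cover the 4 largest falls and the phosphorylase pair that moved in opposite directions. Each stretch ends at or just before the transcription start site, reads 5′ to 3′ on the strand of the gene and was taken from a RefSeq promoter table of build GRCh38.p14 and placed by exact match in GRCh37. Capitals mark ACGTG and GCGTG on either strand (CACGT and CACGC when they lie on the other strand), the core letters that hypoxia-inducible factors bind. The stretches are chr19:49496568-49496816 for GYS1, chr3:81810797-81811046 for GBE1, chr10:93392829-93393078 for PPP1R3C and chr14:51411202-51411451 for PYGL, all on the minus strand, and chr20:25228471-25228720 for PYGB on the plus strand.
GYS1: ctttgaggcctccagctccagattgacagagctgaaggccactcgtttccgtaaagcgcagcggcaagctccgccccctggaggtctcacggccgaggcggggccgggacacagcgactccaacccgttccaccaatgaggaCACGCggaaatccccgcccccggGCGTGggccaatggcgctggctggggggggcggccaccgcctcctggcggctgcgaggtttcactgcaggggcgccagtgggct
GBE1: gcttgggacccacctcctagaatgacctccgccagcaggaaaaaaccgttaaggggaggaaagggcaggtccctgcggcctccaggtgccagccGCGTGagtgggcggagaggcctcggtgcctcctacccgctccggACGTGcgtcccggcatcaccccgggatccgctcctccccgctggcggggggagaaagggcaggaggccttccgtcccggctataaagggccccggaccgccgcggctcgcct
PPP1R3C: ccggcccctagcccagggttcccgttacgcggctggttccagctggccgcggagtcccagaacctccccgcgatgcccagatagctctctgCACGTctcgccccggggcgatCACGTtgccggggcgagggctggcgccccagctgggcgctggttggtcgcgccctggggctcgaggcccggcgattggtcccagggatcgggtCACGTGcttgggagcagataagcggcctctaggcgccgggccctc
PYGL: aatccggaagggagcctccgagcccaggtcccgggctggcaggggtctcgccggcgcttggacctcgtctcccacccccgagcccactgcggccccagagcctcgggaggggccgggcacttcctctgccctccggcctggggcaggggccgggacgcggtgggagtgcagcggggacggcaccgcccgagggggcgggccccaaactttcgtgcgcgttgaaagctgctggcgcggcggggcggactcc
PYGB: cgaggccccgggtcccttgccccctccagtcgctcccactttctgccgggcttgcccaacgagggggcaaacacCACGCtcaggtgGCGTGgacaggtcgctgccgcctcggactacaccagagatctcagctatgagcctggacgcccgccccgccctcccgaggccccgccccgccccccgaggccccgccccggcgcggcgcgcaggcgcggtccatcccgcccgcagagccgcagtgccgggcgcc

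The GYS1 stretch holds GCGTG 108 and 85 bases before the start site, once on each strand. That of GBE1 holds GCGTG 156 and ACGTG 112 bases before it. In PPP1R3C, ACGTG was found 4 times, and the matches 45 and 44 bases before the start overlap on opposite strands in the palindrome CACGTG. PYGL, which fell by 0.95 on the log2 scale, holds neither core in this window, and PYGB, which rose, holds GCGTG once on each strand. For 8 members, 11 windows of the promoter table were searched, each over 250 bases before a start site. PPP1R3B was not searched. Of these windows 8 held at least 1 core, 5 held ACGTG and 7 held GCGTG. Among all 35116 windows of the table, 43.2% held at least 1 core, 18.5% ACGTG and 32.2% GCGTG. These are matches of letters and were not tested as binding sites.

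Glycogen synthase showed the largest fall. GYS1 (ENSG00000104812.15, chromosome 19 of GRCh37 from 49471387 to 49496567, minus strand) was at 64.9 and 65.8 CPM in the deeper and the shallower VHL-null library, at 21.0 CPM in VHL-restored replicate 1 and at 21.9 CPM in VHL-restored replicate 2. Every VHL-restored value lay below every VHL-null value, and the replicates of each group lay close together. GYS1 mRNA was 65.4 ± 0.622 CPM (SD, n = 2) in VHL-null cells and 21.4 ± 0.581 CPM (SD, n = 2) in VHL-restored cells, a change of -1.59 on the log2 scale (SE 0.0926, edgeR FDR = 1.11e-14). The value in VHL-restored replicate 1 rests on 62 counts and that in replicate 2 on 368. Leaving out 1 library at a time kept the change between -1.64 and -1.58. Among the 12335 changes, it ranked 362 from the lowest, at percentile 2.93.

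GYG1 encodes glycogenin, the self-glucosylating protein on which a glycogen particle starts. Its mRNA moved opposite to that of GYS1. GYG1 (ENSG00000163754.17, chromosome 3 from 148709195 to 148749562, plus strand) was at 35.2 and 37.4 CPM in VHL-null cells and at 51.2 and 50.3 CPM in VHL-restored replicates 1 and 2. Both VHL-restored libraries lay above both VHL-null libraries, and the log2 fold change was 0.48 (standard error 0.0882, edgeR FDR = 2.71e-05). After thinning all libraries to the depth of the shallowest, the change was 0.32 and missed the threshold (edgeR FDR = 0.0635, from 6.09e-07 to 0.0635 over 13 alternatives). The gene HLTF lies on the opposite strand across part of GYG1 and was at 91.2 ± 9.70 CPM in VHL-restored cells against 104 ± 5.41 CPM (SD, n = 2 each) in VHL-null cells, and its part in the GYG1 value was not tested.

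The branching enzyme fell, by less than synthase did. GBE1 (ENSG00000114480.13, chromosome 3 from 81538854 to 81810796, minus strand) was at 81.9 and 78.6 CPM in VHL-null cells and at 62.4 and 62.9 CPM in VHL-restored cells. The groups did not overlap, and the gap between them exceeded the spread within each. The log2 fold change of GBE1 was -0.36 (standard error 0.0728, edgeR FDR = 0.000109), and it stayed between -0.39 and -0.33 with each library left out. Per kilobase of transcript, GBE1 mRNA was 1.49 ± 0.0574 times that of GYS1 in VHL-null cells and 3.55 ± 0.0749 times (SD, n = 2 each) in VHL-restored cells. The log2 ratio of both genes was 0.58 ± 0.0556 in VHL-null cells and 1.83 ± 0.0305 in VHL-restored cells (exact two-sided permutation test, p = 0.333, adjusted p = 0.444 over 4 ratios). A p of 0.333 is the smallest that 2 libraries against 2 allow.

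The enzymes that supply glucose 1-phosphate and UDP-glucose differed little between the groups. PGM1 (ENSG00000079739.17, chromosome 1 from 64059082 to 64125916, plus strand), the main phosphoglucomutase, was at 127 and 129 CPM in VHL-null cells and at 106 and 106 CPM in VHL-restored cells. This was a small fall with no overlap between the groups, at a change of -0.27 on the log2 scale (SE 0.0659, edgeR FDR = 0.000722). Under total-count scaling, which raised the median change of all genes by 0.13, the value for PGM1 was -0.14 and missed the threshold (edgeR FDR = 0.0651, from 0.000219 to 0.0651 over 13 alternatives). ITGB3BP lies on the opposite strand across part of PGM1 and was lower in VHL-restored cells, at 11.3 ± 0.189 CPM against 22.7 ± 0.267 CPM (SD, n = 2 each), and its part in the PGM1 value was not tested. UGP2 (ENSG00000169764.15, chromosome 2 from 64068086 to 64118696, plus strand), the UDP-glucose pyrophosphorylase, was at 92.0 and 93.4 CPM in VHL-null cells and at 91.3 and 96.0 CPM in VHL-restored cells. It was the 1 member whose groups overlapped. The log2 fold change of UGP2 was 0.03 (95% interval -0.11 to 0.17, edgeR FDR = 0.719), and its sign was negative without VHL-restored replicate 2, at -0.03. An annotated small nucleolar RNA lies on the opposite strand of UGP2.

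The phosphorylases, which cut glycogen down, split by isoform. PYGL (ENSG00000100504.17, chromosome 14 from 51324609 to 51411201, minus strand) was at 196 and 197 CPM in VHL-null cells, at 104 CPM in VHL-restored replicate 1 and at 100 CPM in VHL-restored replicate 2. PYGL thus lay lower in both VHL-restored libraries, with a change of -0.95 on the log2 scale (SE 0.0666, edgeR FDR = 6.34e-13), the second lowest of the 9 genes. PYGB (ENSG00000100994.12, chromosome 20 from 25228721 to 25278648, plus strand), the brain-type phosphorylase, was at 430 and 401 CPM in VHL-null cells and at 545 and 554 CPM in VHL-restored cells. Both VHL-restored libraries were higher, with a change of 0.40 on the log2 scale (SE 0.0615, edgeR FDR = 1.73e-06). A long noncoding RNA lies on the opposite strand across part of PYGL, and none overlaps PYGB. PYGM, the muscle isoform, had no row in the table. PYGB and PYGL are paralogs, and how reads that match both were counted is not given in the sources used here.

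Shares of the isoforms were computed per kilobase of the canonical transcript, since the genes differ in length. PYGL made up 40.1% and 42.0% of phosphorylase mRNA in VHL-null cells and 22.0% and 21.1% in VHL-restored cells, a difference of -19.5 percentage points. The share was lower in both VHL-restored libraries, with the smallest p that this design allows (exact two-sided permutation test, p = 0.333, adjusted p = 0.444 over 4 ratios). Summed over PYGB and PYGL, the level was 171 ± 4.53 CPM per kilobase in VHL-null cells and 170 ± 0.479 CPM per kilobase (SD, n = 2 each) in VHL-restored cells. The sum depended on the length used, and with the union of all annotated exons it was 136 ± 4.30 and 146 ± 0.754 CPM per kilobase. GYS1 over summed phosphorylase mRNA was 0.107 ± 0.00385 in VHL-null cells and 0.0353 ± 0.000857 (SD, n = 2 each) in VHL-restored cells, a difference of -1.60 on the log2 scale (exact two-sided permutation test, p = 0.333, adjusted p = 0.444).

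**Figure D2:**
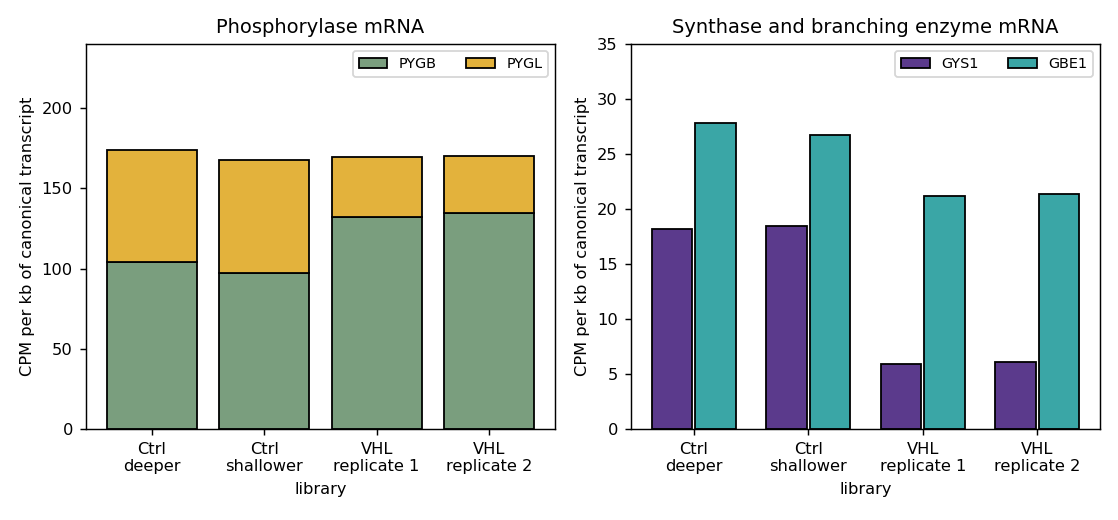
Levels per kilobase of canonical transcript in each library, as stacked bars for PYGB and PYGL (left) and side by side bars for GYS1 and GBE1 (right), with 1 bar or pair of bars per library. The stacks reach similar heights of 168 to 174 CPM per kilobase with a smaller PYGL part in VHL-restored cells, and GYS1 falls further than GBE1.

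The PP1 targeting subunits were the least abundant of the 9 and their values the least certain. PPP1R3C (ENSG00000119938.9, chromosome 10 from 93388199 to 93392828, minus strand), also called protein targeting to glycogen, was at 7.55 and 7.18 CPM in VHL-null cells, at 7.12 CPM in VHL-restored replicate 1 and at 4.16 CPM in VHL-restored replicate 2. Replicate 1, with 21 counts, lay just below the VHL-null libraries, and replicate 2, with 70 counts, lay well below them. The log2 fold change was -0.64 (standard error 0.233, edgeR FDR = 0.0184). This call rested on replicate 2, without which the change was -0.06 (edgeR FDR = 0.905), and it was also lost without the deeper (-0.56, FDR = 0.158) or the shallower (-0.63, FDR = 0.0860) VHL-null library. DESeq2 gave -0.53 with an adjusted p of 0.238, and over 13 alternatives the adjusted p ranged from 0.00204 to 0.905. PPP1R3B (listed under ENSG00000285343.2), the targeting subunit best known from liver, had 18 and 9 counts in VHL-null cells and 6 and 48 counts in VHL-restored cells. In CPM these were 0.855 and 0.598 against 2.04 and 2.85, higher in both VHL-restored libraries though low throughout. PPP1R3B passed the low-count filter by these VHL-restored levels, and the VHL-null libraries alone would not have passed it. Its log2 fold change was 1.84 (standard error 0.409, 95% interval 1.00 to 2.68, edgeR FDR = 0.000294), and 1.83 with no filter on low counts (edgeR FDR = 0.0003). Without VHL-restored replicate 2 it was 1.43 and missed the threshold (edgeR FDR = 0.172, from 0.000118 to 0.172 over 11 alternatives). The identifier of this row is not in the annotation used here, so no position is given for it, and its length was taken through the symbol. Whether the row holds all reads of PPP1R3B is not given in the sources used here, and its level and rank rest on that row.

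PPP1R3C held 27.4% and 25.3% of the mRNA of the 6 targeting subunits in the table, per kilobase, in VHL-null cells. In VHL-restored cells its share was 26.7% in replicate 1 and 16.2% in replicate 2, and the groups overlapped (exact two-sided permutation test, p = 0.667, adjusted p = 0.667 over 4 ratios). The difference of -4.87 percentage points turned to 0.399 without VHL-restored replicate 2.

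**Figure D3:**
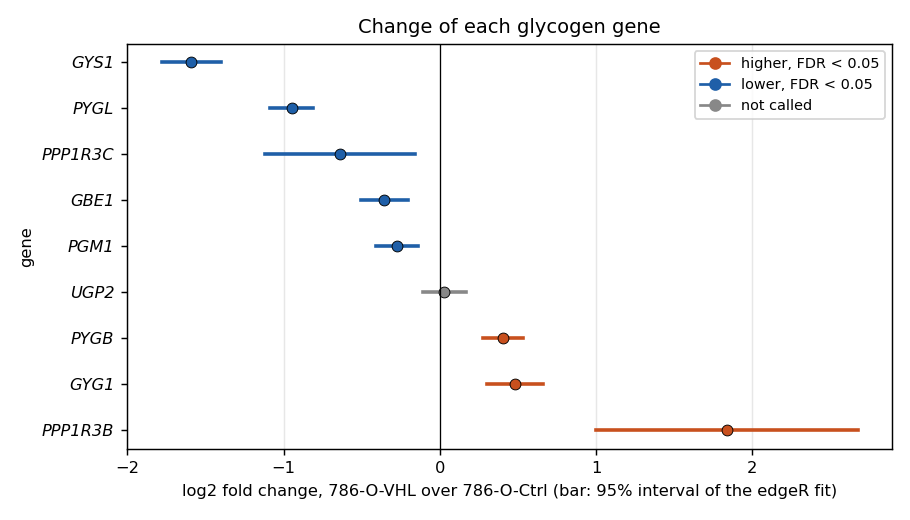
Log2 fold change of each glycogen gene, VHL-restored over VHL-null, as a point with the 95% interval of the edgeR fit, colored by call at FDR under 0.05. GYS1 and PYGL lie farthest to the left, the interval of UGP2 spans 0, and PPP1R3B has the widest interval, from 1.00 to 2.68.

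Ordered by level per kilobase, the 9 genes in VHL-null cells ran from PYGB (101 ± 4.92 CPM per kilobase) and PYGL (70.1 ± 0.396) through PGM1 (54.8 ± 0.567), UGP2 (43.1 ± 0.480), GBE1 (27.3 ± 0.792), GYS1 (18.3 ± 0.174) and GYG1 (6.05 ± 0.263) to PPP1R3C (2.90 ± 0.104) and PPP1R3B (0.132 ± 0.0329, SD and n = 2 for each). No neighbors in this order overlapped between libraries. In VHL-restored cells the order was PYGB (133 ± 1.49), PGM1 (45.3 ± 0.241), UGP2 (43.5 ± 1.55), PYGL (36.6 ± 1.01), GBE1 (21.3 ± 0.127), GYG1 (8.47 ± 0.109), GYS1 (6.01 ± 0.163), PPP1R3C (2.22 ± 0.826) and PPP1R3B (0.443 ± 0.105, SD and n = 2 for each). GYS1 lay above GYG1 in both VHL-null libraries and below it in both VHL-restored libraries, also with the exon union as the length. PGM1 and UGP2 differed by less than 2 SD of UGP2 in VHL-restored cells. The place of UGP2 depended on the length, since with the exon union it ranked 6 in VHL-null cells and 4 in VHL-restored cells.

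The other genes of glycogen handling moved in both directions. In a list of 18 further enzymes, targeting subunits and glycogen-associated proteins, 13 were in the table and 11 were tested, of which 3 were higher and 2 lower, against 32.6% and 31.9% of all genes, and the list had a median change of 0.10 on the log2 scale. GYS2, GYG2, PYGM, PGM5 and PPP1R3A had no row. GAA, the lysosomal acid glucosidase that breaks down glycogen delivered to lysosomes, rose most, from 33.3 and 35.3 CPM in VHL-null to 139 and 127 CPM in VHL-restored cells, a change of 1.93 on the log2 scale (SE 0.0747, edgeR FDR = 1.27e-18). RBCK1, a ubiquitin ligase subunit whose loss in patients leads to polyglucosan storage, rose by 1.20 on the log2 scale, from 351 ± 5.63 to 805 ± 17.4 CPM (SD, n = 2 each). PGM2L1, which makes glucose 1,6-bisphosphate, the activator of phosphoglucomutase, rose by 0.84. EPM2AIP1, a partner of the glycogen phosphatase laforin, fell by 0.77 and PGM2, a phosphopentomutase related to PGM1, fell by 0.53. The targeting subunit PPP1R3G, singled out after its values were seen, had 11 and 8 counts in VHL-null cells and 0 and 1 counts in VHL-restored cells and was not tested. A count of 0 in VHL-restored replicate 1 allows up to 3 counts, or 1.02 CPM, with counting error alone considered.

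Of 17 genes that set the phosphorylation state of synthase and phosphorylase or sense glycogen, 16 were in the table and tested, PRKAG3 having no row. In this list 7 were higher and 4 lower in VHL-restored cells, against 32.6% and 31.9% of all genes, and the median change was 0.11 on the log2 scale. The PP1 catalytic subunits PPP1CC and PPP1CA fell by 0.96 and 0.56 on the log2 scale, and PPP1CB, named after its values were seen, rose by 0.45. PPP1CC was at 132 and 134 CPM in VHL-null cells and at 69.9 and 67.8 CPM in VHL-restored cells (edgeR FDR = 1.28e-12). PHKA2, the liver-type regulatory subunit of phosphorylase kinase, fell by 0.73. The subunits of AMP-activated protein kinase, an energy sensor whose beta subunits bind glycogen, moved in both directions. PRKAA2 rose by 0.90, PRKAB2 by 0.76 and PRKAB1 by 0.47, from 34.5 ± 4.64 to 46.6 ± 2.11 CPM (SD, n = 2 each) for the last. Of its other subunits, named after their values were seen, the catalytic PRKAA1 rose by 0.18, the regulatory PRKAG2 fell by 0.54 and PRKAG1 was at 0.06 (edgeR FDR = 0.510).

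Genes that use UDP-glucose for other products, or feed galactose into it, were all 12 in the table and tested. Of these 6 were lower and 0 were higher at an edgeR FDR under 0.05, against 31.9% of all genes called lower and 32.6% higher, and the median change was -0.15 on the log2 scale. At an unadjusted p under 0.05, 1 gene was higher, UGCG at a log2 fold change of 0.14 (edgeR FDR = 0.0503), which makes glucosylceramide and was named after its values were seen. DESeq2 called 0 of the list higher and 3 lower, against 2861 and 3147 of all 12335 genes. With limma-voom 1 was higher, against 4175 of all genes, and with library totals alone 2 were higher, against 5077. The numbers called also shifted with some libraries left out, as did those over all genes. POGLUT3, a protein O-glucosyltransferase, fell from 43.6 and 40.3 CPM in VHL-null to 11.5 and 11.3 CPM in VHL-restored cells, a change of -1.88 on the log2 scale (SE 0.121, edgeR FDR = 9.13e-14). UGGT1, which glucosylates misfolded glycoproteins, fell by 0.53.

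**Figure D4:**
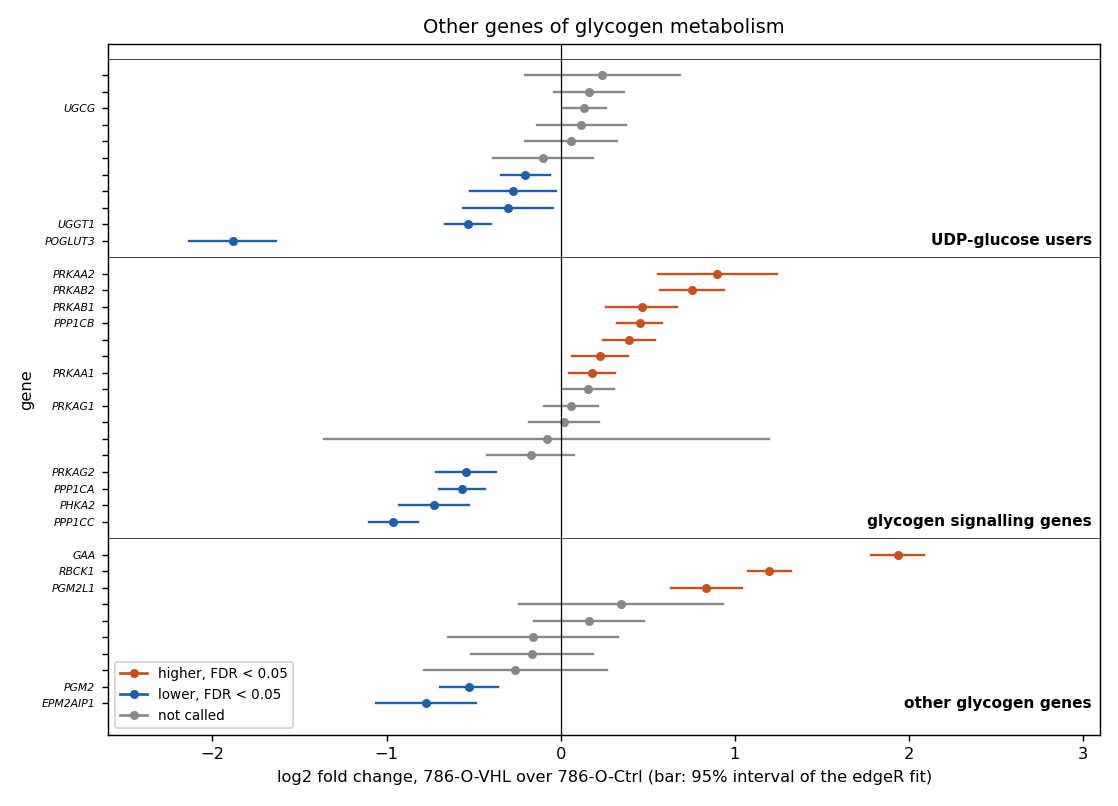
Log2 fold changes with 95% intervals of the edgeR fit for 37 of the 39 tested genes of the 3 other lists (the other 2 are not reported here), VHL-restored over VHL-null, grouped by list and sorted within each (the 18 genes named in the text are labelled), with colors for the call at FDR under 0.05. GAA at 1.93 and POGLUT3 at -1.88 lie farthest out, and most other genes lie within 1 of 0.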

How the data were processed

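Total RNA of both 786-O sublines was sequenced by the authors on an Illumina platform from 1 μg per library. Reads were aligned to hg19, and the submitters' processing notes name CASAVA and STAR without role or version. The authors deposited whole-number counts per gene, not normalized. For the counting step, neither tool, strand setting nor gene models are named (not given in the sources used here). Groups were taken from the sample titles.

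The differential test was that of edgeR 4.0.16 (R 4.3.3), after filterByExpr with a minimum count of 10 and TMM scaling. The model held group alone, and each gene was tested by the quasi-likelihood F test with Benjamini-Hochberg adjustment over 12335 genes. Standard errors are those implied by the F statistic, with a biological coefficient of variation of 4.31%. Levels per kilobase used the canonical transcript of a GRCh37 GENCODE annotation, in which 12749 of 12912 identifiers were found. Replicates differed by more than sampling noise (chi-square per degree of freedom 2.22 and 2.72). Depth varied 7.89-fold, and a count of 0 allows up to 3 counts, or 0.142 to 1.02 CPM.

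The members and lists were chosen with earlier results of these data known. All members are named, and of each other list at most 3 genes per direction with the largest change past an FDR of 0.05. Some genes of these lists are counted in them but not reported here by name. Alternatives were DESeq2 1.42.0, limma-voom 3.58.1, other size factors, other filters, thinning, each library left out, a replicate block, other thresholds and, added after seeing the data, exon union lengths. On simulated counts for this comparison over 12335 genes, edgeR recovered 90 of 100 genes changed 2-fold and 97 of 100 changed 4-fold, with 7 false calls. The simulation left 12135 genes unchanged and gave every gene the same biological coefficient of variation. In the data 64.5% of genes were called, and so broad a change was not simulated.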

Additional observations from a re-analysis of the deposited data

How the results depend on the processing

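Among the 9 genes, GYS1, PYGL, GBE1 and PYGB kept their direction and their side of the threshold under all 13 alternative fits. GYG1 was at 0.32 (FDR = 0.0635) after thinning. Scaling by library totals alone moved the median of all genes by 0.13 on the log2 scale. It gave UGP2 0.16 (FDR = 0.0365), PGM1 -0.14 and PPP1R3C -0.50 (FDR = 0.0590). Under this scaling 4 members were higher and 3 lower, against 5077 and 3097 of all 12335 genes. PPP1R3C was at -0.53 with DESeq2, at -0.35 (FDR = 0.437) after thinning and between -0.83 and -0.057 with each library left out. PPP1R3B ranged from 1.43 to 2.12 and UGP2 from -0.028 to 0.050 with each library left out, and PPP1R3B could not be tested after thinning or where 10 counts were required in every library. After thinning, 1 member was called higher, against 2865 of the 10825 genes tested then. At a change of at least 2-fold, 1 member was higher (PPP1R3B) and 1 lower (GYS1), and over all genes 1234 and 927. PPP1R3B passed the low-count filter only by its VHL-restored level, which favored a call in that direction.

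The count table gives both VHL-null columns the same number, so a replicate block was fitted for both ways of numbering them. Same-numbered libraries did not deviate together (correlation of deviations -0.0072 or 0.0072 over 12335 genes). With the block and the deeper library as number 1, PPP1R3C was at -0.54 (FDR = 0.0535), and the block changed no other call of a member.

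Of the UDP-glucose users, 1 was higher with limma-voom and with 10 counts in every library, 2 with library totals alone and 0 to 2 with each library left out. The number lower was 3 with DESeq2 and with library totals alone and 3 to 5 with each library left out. The difference in the PYGL share was -16.4 percentage points without division by length and -16.2 with exon unions, and that of the synthase to phosphorylase ratio was -1.70 without division by length, -1.71 with exon unions and -1.54 after thinning, on the log2 scale. The PPP1R3C share differed by -10.1 to 0.399 percentage points with each library left out. The cause of these shifts was not tested. The 2807779 counts of VHL-restored replicate 1 limit what can be said of PPP1R3C and PPP1R3B.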
